A study of Mus musculus with 10 samples.

Results

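The conjugating enzymes of drug and steroid metabolism were examined in organoids from mouse small intestine and in crypts from mouse colon, as the glutathione S-transferase (Gst and Mgst), UDP-glucuronosyltransferase (Ugt) and cytosolic sulfotransferase (Sult) genes. Members were chosen by symbol: all genes of the soluble GST classes, of Mgst, of Ugt families 1, 2 and 3 and of Sult that had at least 10 unique molecular identifiers (UMIs, each standing for 1 captured RNA molecule) over the kept cells. Of 31053 genes in the tables, 67 symbols matched and 48 reached that minimum, against 19330 genes of the whole series that did. The 19 that did not were Sult2a1 to Sult2a8, Sult3a1, Sult3a2, Sult1c1, Ugt2a1, Ugt2a2, Ugt3a1, Ugt3a2, Ugt1a8, Ugt1a10, Ugt2b37 and Ugt2b38.

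Organoids, which are epithelial cultures grown in Matrigel from crypts of the proximal small intestine, were profiled by single-cell RNA sequencing in 8 libraries, beside 1 library each of colonic crypts from normal mice and from mice given DSS, a chemical that injures the colon. The ENR medium held Noggin, R-Spondin 1 and EGF. The Hyper medium held LDN193189 (a BMP receptor inhibitor), GSK-3 Inhibitor XV, Pexmetinib, VPA (an inhibitor of histone deacetylases), EPZ6438 (an inhibitor of the H3K27 methyltransferase EZH2), EGF, R-Spondin 1 conditioned medium and FGF2, and the -VE medium was the Hyper medium lacking VPA and EPZ6438. All 3 media shared a base with N2, B27 and N-Acetylcysteine, the last being a precursor of glutathione. The cultures were put into 3 series by the shared first part of their library codes, which the labels do not name as series. Replicate 1 held ENR at passage 2 and -VE and Hyper at passage 1. Replicate 2 held ENR at passage 7 and -VE and Hyper at passage 6, and replicate 3 held ENR and Hyper at passage 3. Whether the first and second series were separate cultures or the same lines at later passages was not stated. The Hyper and -VE cultures of the first and second series were started from ENR-organoids, and both cultures of the third series from primary crypts. Crypt donors were 6 to 12 weeks old and the colitis model used 8-week-old female mice, per the methods; strain and the number of mice per library were not given in the labels, so p-values measure the spread between these libraries only.

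Conjugation joins a foreign compound, hormone or bile pigment to a polar group, which makes it easier to excrete. Glutathione S-transferases attach glutathione to electrophiles, UDP-glucuronosyltransferases attach glucuronate from UDP-glucuronate in the endoplasmic reticulum, and sulfotransferases attach sulfate from PAPS in the cytosol. In the small intestine these enzymes are known mainly from the absorptive enterocytes of the villus, where they act on what is taken up from the lumen.

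The kept cells numbered 1983 to 4293 in an organoid library, 1132 in the normal and 1933 in the DSS colonic library, with 89124015 to 170019527 UMIs in the organoid libraries and 19906845 and 32397122 in the colonic ones. Any 2 libraries shared 0 to 5 cell barcodes. Enterocyte markers were present but differed between media: the summed level of the 5 markers ran from 1725 to 2440 CPM (UMI counts scaled to a common library total) in ENR, 756 to 779 in -VE and 127 to 569 in Hyper. Leukocyte markers stayed at or below 1.68 CPM and stromal markers at or below 0.529 CPM in all 8 organoid libraries.

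Members made up 0.358 to 0.399% of UMIs in the ENR libraries, 0.350% in both -VE libraries and 0.212 to 0.249% in the Hyper libraries. The UMIs of all kept cells of a library were summed and compared between media with the edgeR quasi-likelihood test, and a gene was called when its Benjamini-Hochberg adjusted p was under 0.05 and its change was at least 2-fold. Of the 48 members, 43 passed the filter on low counts. Between Hyper and ENR, 22 of 43 were called, 2 higher and 20 lower, where 22.9% of all 16037 genes were called, 18.2% higher and 4.75% lower. Their median log2 fold change was -0.95, against -0.01 over all genes tested. Between Hyper and -VE, whose media differ by VPA and EPZ6438, 13 members were called, 2 higher and 11 lower, against 18.6% of all genes (16.1% higher, 2.51% lower), with a median of -0.71. Hyper and ENR each also held a replicate 3, started from primary crypts, which -VE lacked. Between -VE and ENR, 7 were called, 1 higher and 6 lower, against 2.55% of all genes (1.35% higher, 1.20% lower), with a median of -0.29. The 3 comparisons share libraries, so their values are given side by side. Ugt1a9, called lower in Hyper and in -VE than in ENR, passed the filter only through the ENR libraries and so had to differ. For each called member the libraries of the groups compared did not overlap, but the same held for many members not called, so it adds little to the calls. In such sums, fewer cells of a type and less RNA per cell cannot be told apart.

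**Figure D1:**
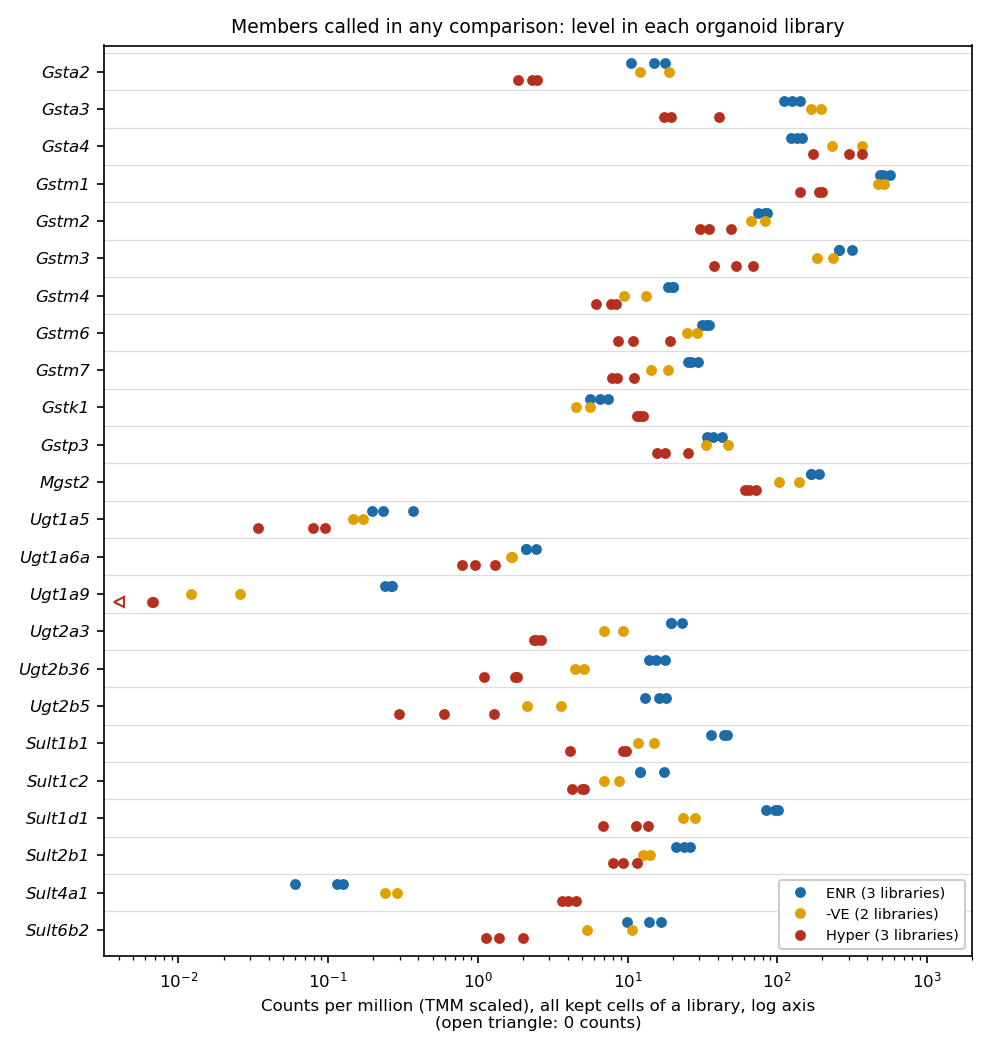
Level of each member called in any of the 3 comparisons (rows) in each of the 8 organoid libraries (points, coloured by medium), in TMM-scaled CPM on a log axis, with an open triangle for a library with 0 counts. Most rows order as ENR above Hyper, with Sult1d1 at 84.3 to 101 in ENR and 6.90 to 13.6 in Hyper, while Sult4a1, Gsta4 and Gstk1 order the other way.

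Per-library values are TMM-scaled CPM summed over all kept cells, in the order of replicates 1, 2 and 3 (1 and 2 for -VE), and folds are log2 fold changes with their standard error (SE). The mu class of soluble GSTs held 7 members, and 6 of them were called lower in Hyper than in ENR. Gstm1 stood at 513, 571 and 486 CPM in ENR, 514 and 471 in -VE and 190, 198 and 142 in Hyper. The Hyper libraries lay below all others, with a log2 fold change against ENR of -1.56 (SE 0.127, adjusted p = 2.9e-05), and ENR and -VE overlapped. Gstm3 stood at 260, 315 and 259 in ENR, 236 and 185 in -VE and 52.9, 68.4 and 38.1 in Hyper, a log2 fold change of -2.38 between Hyper and ENR (SE 0.209, adjusted p = 4.18e-05) and -1.99 between Hyper and -VE (SE 0.221, adjusted p = 0.000296). Gstm7, Gstm4, Gstm6 and Gstm2 were lower by log2 fold changes of -1.56, -1.40, -1.36 and -1.08. Gstm7 ran from 25.2 to 29.3 in ENR and 7.87 to 11.0 in Hyper, Gstm4 from 18.7 to 20.1 and 6.12 to 8.43, and Gstm6 stood at 31.2 or more in ENR and 8.68 to 19.2 in Hyper. Gstm2, at 74.3 to 85.9 in ENR and 30.6 to 49.4 in Hyper, lost its call without Hyper replicate 2 (-0.93) and when scaled by library size alone (-0.95). Gstm5 was the exception of the class: its libraries stood at 62.2 to 72.7 in ENR, 71.1 and 75.0 in -VE and 90.1 to 105 in Hyper, a log2 fold change of 0.57 with the Hyper libraries highest (adjusted p = 0.00046), short of 2-fold. The 7 genes lie side by side on chromosome 3, between 107895821 and 108044894 (mouse GRCm38, GENCODE M21), with Gstm5 at one end.

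The alpha class split. Gsta3 stood at 125, 142 and 112 CPM in ENR, 169 and 196 in -VE and 40.6, 19.4 and 17.6 in Hyper, so that -VE was the highest group and Hyper the lowest with no overlap. The log2 fold change was -2.28 against ENR (SE 0.303, adjusted p = 0.00036) and -2.82 against -VE (SE 0.326, adjusted p = 0.000362). Gsta2 ran lower, at 14.9, 17.7 and 10.6 in ENR, 18.8 and 12.2 in -VE and 2.49, 2.30 and 1.87 in Hyper (log2 fold change against ENR -2.69, SE 0.238, adjusted p = 4.38e-05). Gsta4, known for conjugating 4-hydroxynonenal, an aldehyde of lipid peroxidation, was the one called higher: 123, 135 and 147 in ENR, 234 and 367 in -VE and 173, 371 and 303 in Hyper. Every -VE and Hyper library lay above every ENR library, -VE and Hyper overlapped, and the log2 fold change of Hyper against ENR was 1.06 (SE 0.271, adjusted p = 0.00998). That call rests on 1 library and on the fit, since without Hyper replicate 2 the value was 0.82 and with a term for the replicate number (a replicate block) it was 1.00 (adjusted p = 0.00214), just short of 2-fold. Gsta1, which shares part of its transcript end with Gsta2, varied widely within Hyper: 204, 262 and 280 in ENR, 224 and 307 in -VE and 18.8, 139 and 192 in Hyper. Hyper replicate 1 lay far below the other Hyper libraries, and the log2 fold change of -1.10 (SE 0.647) had an adjusted p of 0.181.

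The membrane-bound microsomal enzymes and Gsto1, an omega class enzyme that also reduces dehydroascorbate, were among the most abundant members, with changes mostly short of 2-fold. Mgst1 stood at 482, 533 and 531 CPM in ENR, 456 and 403 in -VE and 338, 297 and 299 in Hyper. No group overlapped another, in the order ENR, -VE, Hyper from high to low, and the log2 fold change of Hyper against ENR was -0.73 (SE 0.0766, adjusted p = 0.000108), short of 2-fold. Mgst3 (462, 545 and 461 in ENR, 461 and 458 in -VE, 246, 319 and 285 in Hyper) and Gsto1 (366, 373 and 358, then 317 and 313, then 187, 209 and 205) had log2 fold changes of -0.79 and -0.87, with the Hyper libraries lowest. Mgst2, an enzyme that can also form leukotriene C4, was called: it stood at 167, 191 and 168 in ENR, 140 and 103 in -VE and 64.7, 71.8 and 60.9 in Hyper (log2 fold change -1.41, SE 0.119, adjusted p = 3.41e-05).

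Gstk1, the kappa class enzyme of mitochondria and peroxisomes, was higher in Hyper: 5.62, 6.55 and 7.40 CPM in ENR, 5.66 and 4.50 in -VE and 11.6, 12.1 and 12.7 in Hyper. The ENR and -VE libraries overlapped and the Hyper libraries lay above both, with a called log2 fold change of 1.26 against -VE (SE 0.144, adjusted p = 0.000347) and an uncalled one of 0.89 against ENR (SE 0.125, adjusted p = 0.000483). Gstp3, of the pi class, was called lower between Hyper and -VE (47.0 and 33.3 against 25.4, 15.7 and 17.7, log2 fold change -1.03, adjusted p = 0.00561), a call lost without -VE replicate 1 or without Hyper replicate 2 or 3. Its neighbour Gstp1 stood at 98.7, 78.8 and 39.0 in ENR, 122 and 95.8 in -VE and 107, 91.0 and 111 in Hyper, and its groups overlapped. Gstp1 and Gstp2 share 72.7% and 47.5% of the 60-base words at their transcript ends, so the split of counts between them is uncertain. Gstz1, which also acts in tyrosine breakdown as maleylacetoacetate isomerase, was lower in all 3 Hyper libraries (28.0, 28.8 and 29.0) than in ENR (42.1, 44.5 and 44.4), a log2 fold change of -0.61. The theta class members Gstt1, Gstt2 and Gstt3 moved by 0.30, -0.25 and -0.13.

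Glucuronosyltransferases of the Ugt2 families act on steroids, bile acids and foreign compounds, and 3 of the 5 tested were called lower in Hyper than in ENR. Ugt2a3 stood at 19.5, 23.1 and 19.6 CPM in ENR, 9.39 and 7.01 in -VE and 2.39, 2.63 and 2.44 in Hyper. No library of 1 group reached the next group, and the log2 fold changes were -3.06 for Hyper against ENR (SE 0.132, adjusted p = 1.77e-06), -1.72 for Hyper against -VE (adjusted p = 7.79e-05) and -1.34 for -VE against ENR (adjusted p = 0.00287). Ugt2b36 stood at 14.0, 17.8 and 15.5, then 5.12 and 4.46, then 1.10, 1.78 and 1.81, with log2 fold changes of -3.33, -1.62 and -1.72 in the same 3 comparisons. Ugt2b5 stood at 13.1, 18.1 and 16.2, then 3.59 and 2.14, then 0.299, 1.27 and 0.591, with log2 fold changes of -4.44 (SE 0.477, adjusted p = 0.000119), -1.97 and -2.47. Of these the -1.97 lost its call without -VE replicate 1 (-1.54), and the -2.47 lost its call on leaving out any ENR or -VE library. The most abundant glucuronosyltransferase, Ugt2b34, was not called: it stood at 121, 128 and 121 in ENR, 100 and 117 in -VE and 68.1, 98.2 and 80.2 in Hyper, a log2 fold change of -0.59, with no overlap. Ugt2b35 also fell short of 2-fold (-0.81, 26.7 to 29.9 in ENR and 14.9 to 17.7 in Hyper).

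The Ugt1a genes are spliced from separate first exons onto shared last exons on chromosome 1. Ugt1a1, Ugt1a2, Ugt1a5 and Ugt1a9 share all their 60-base words at the transcript end. Ugt1a6b shares 97.6% and Ugt1a6a 50.0% of their words with Ugt1a1, and Ugt1a7c shares 50.0% of its words with Ugt1a6a. Reads from a shared end cannot be told apart between the forms that share it, so their 3′ counts, and ratios of them, are uncertain. All had low counts, and the part of the shared ends in this was not tested. Ugt1a7c, the highest, ran from 5.09 to 6.31 CPM in ENR and 2.46 to 3.69 in Hyper (log2 fold change -0.93, not called). Ugt1a6a (2.10 to 2.45 in ENR, 0.787 to 1.30 in Hyper) was called lower, at -1.14, though not without Hyper replicate 1, and so was Ugt1a5 (0.197 to 0.370, then 0.0339 to 0.0949) at -1.95. Ugt1a9 had 77 UMIs over the 3 ENR libraries, 5 over the -VE libraries and 2 over the Hyper libraries, a ratio of levels between Hyper and ENR of 0.0217 with an exact 95% counting interval of 0.00258 to 0.0809. Ugt1a1, the enzyme that conjugates bilirubin, stood at 0.490 to 0.509 in ENR, 0.310 and 0.334 in -VE and 0.365 to 0.527 in Hyper, and ENR and Hyper overlapped over all cells. Within stem cells Ugt1a1 stood at 0.131 to 0.232 in ENR, 0.129 and 0.187 in -VE and 0.520 to 0.689 in Hyper, from 6, 11 and 79 UMIs, a ratio between Hyper and ENR of 3.14 with a counting interval of 1.38 to 8.81. It passed the low-count filter in stem cells only through the Hyper libraries, so this is a description.

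Of the sulfotransferases, Sult1d1, which acts on catecholamines, was the most abundant in ENR. It stood at 84.3, 96.9 and 101 CPM in ENR, 28.3 and 23.4 in -VE and 6.90, 11.4 and 13.6 in Hyper. The 3 groups did not overlap, and Hyper was 8.87-fold below ENR (log2 fold change -3.15, SE 0.232, adjusted p = 1.81e-05) and 2.44-fold below -VE (-1.29, SE 0.238, adjusted p = 0.00312). Sult1b1, a sulfotransferase of phenols and thyroid hormone, stood at 35.9, 45.8 and 44.0 in ENR, 15.0 and 11.8 in -VE and 4.10, 9.26 and 9.70 in Hyper (log2 fold change of Hyper against ENR -2.45, SE 0.300, adjusted p = 0.000233). Sult6b2 stood at 9.88, 16.8 and 13.9 in ENR, 5.38 and 10.7 in -VE and 1.99, 1.13 and 1.38 in Hyper, so that ENR and -VE overlapped and Hyper lay below both (log2 fold change against ENR -3.17, SE 0.337, adjusted p = 0.000112). Sult2b1, which sulfates cholesterol and other hydroxysteroids, and Sult1c2 were lower by -1.30 and -1.55, at 21.1 to 26.2 and 12.1 to 17.6 in ENR and 7.95 to 11.6 and 4.28 to 5.13 in Hyper.

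Sult4a1, a sulfotransferase known from brain whose substrate is not settled, was the member that rose most. It stood at 0.114, 0.125 and 0.0597 CPM in ENR, 0.240 and 0.286 in -VE and 4.49, 4.00 and 3.66 in Hyper, from 31, 75 and 1612 UMIs in the 3 groups. Every Hyper library lay above every -VE library and these above every ENR library, with log2 fold changes of 5.30 for Hyper against ENR (SE 0.257, adjusted p = 3.04e-06), 3.93 for Hyper against -VE (SE 0.269, adjusted p = 3.96e-05) and 1.37 for -VE against ENR (SE 0.285, adjusted p = 0.0285). The last call was lost without ENR replicate 1 or 2 or without either -VE library.

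On chromosome 5 (GRCm38) 9 members lie between 86889767 and 87591594 in the order Ugt2b34, Ugt2b1, Ugt2b35, Ugt2b36, Ugt2b5, Ugt2a3, Sult1b1, Sult1d1 and Sult1e1. The 5 consecutive genes from Ugt2b36 (start 87065927) to Sult1d1 (end 87569027) were called lower in Hyper than in ENR (5 of the 22 called), by log2 fold changes of -2.45 to -4.44, and lower in -VE than in ENR, by -1.34 to -2.47. The -VE against ENR calls of Ugt2b5 and Sult1b1 were lost on leaving out any ENR or -VE library. Ugt2b34 and Ugt2b35 at the lower-coordinate end were called in neither, and Ugt2b1 and Sult1e1 were too low to test. This run was chosen after the values were seen and its position was not tested.

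Promoters from RefSeq (build GRCm38.p6, 250 bases before to 50 after the start) were given for 44 members. The core of the antioxidant response element, TGACNNNGC, on either strand, was in 4 of 55 member promoters, those of Gsta3, Gstm5, Gstm7 and Mgst1, and in 12.4% of all 32851 promoters. A core of paired HNF1 half-sites, GTTAAT and ATT with 1 base between them, on either strand, was in the promoters of Sult1d1, Ugt1a1 and Ugt1a9 and in 0.399% of all promoters, and no member promoter held both. With the motif in capitals, and chosen after the values were seen, 2 promoters follow, those of Sult1d1 (chr5:87568957-87569256, minus strand), which was called lower in all 3 comparisons, and of Gsta3 (chr1:21240335-21240634, plus strand), which was called lower in Hyper and stood past 2-fold higher in the DSS colonic library. A match describes the letters only.
Sult1d1: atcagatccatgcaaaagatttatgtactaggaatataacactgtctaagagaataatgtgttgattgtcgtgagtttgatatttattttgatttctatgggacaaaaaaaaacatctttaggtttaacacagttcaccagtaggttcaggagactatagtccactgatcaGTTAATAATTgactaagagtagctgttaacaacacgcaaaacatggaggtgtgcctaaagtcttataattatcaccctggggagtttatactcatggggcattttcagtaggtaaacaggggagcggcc
Gsta3: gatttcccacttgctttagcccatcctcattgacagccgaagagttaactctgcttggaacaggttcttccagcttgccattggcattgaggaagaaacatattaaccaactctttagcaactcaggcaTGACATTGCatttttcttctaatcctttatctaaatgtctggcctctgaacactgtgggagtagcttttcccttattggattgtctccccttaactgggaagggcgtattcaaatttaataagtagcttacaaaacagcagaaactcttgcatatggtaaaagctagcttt

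By the authors' annotation of cell classes, members were mostly highest in enterocytes in ENR and -VE. Only members with at least 3 UMIs in their highest class were counted. In ENR, where 7 classes had at least 20 cells in every library, 36 of 44 such members were highest in enterocytes, and in -VE 34 of 41 were. The share of all genes highest in enterocytes was not computed. In Hyper, enterocytes did not have 20 cells in every library. Among the 4 classes that did, 25 members were highest in stem, 13 in enteroendocrine and 6 in goblet cells. Class levels are plain CPM, and a 3′ UMI count does not grow with transcript length. In ENR enterocytes, Gstm1 averaged 2139 CPM (SD 273, n = 3), Gsta1 2063 (SD 83.7), Gstm3 1346 (SD 143), Mgst1 1245 (SD 128) and Mgst3 1178 (SD 147). In ENR stem cells the same genes averaged 308, 28.3, 97.1, 415 and 344. Sult6b2 stood at 121 CPM in ENR enterocytes, 1.75 in enterocyte progenitors, 14.8 in enteroendocrine cells and 0.399 in stem cells. Gstm5 ran from 52.7 to 68.5 over the 7 classes in ENR. Gstt1, Gstz1 and Sult4a1 were highest in enteroendocrine cells, at 477, 131 and 4.71 CPM.

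**Figure D2:**
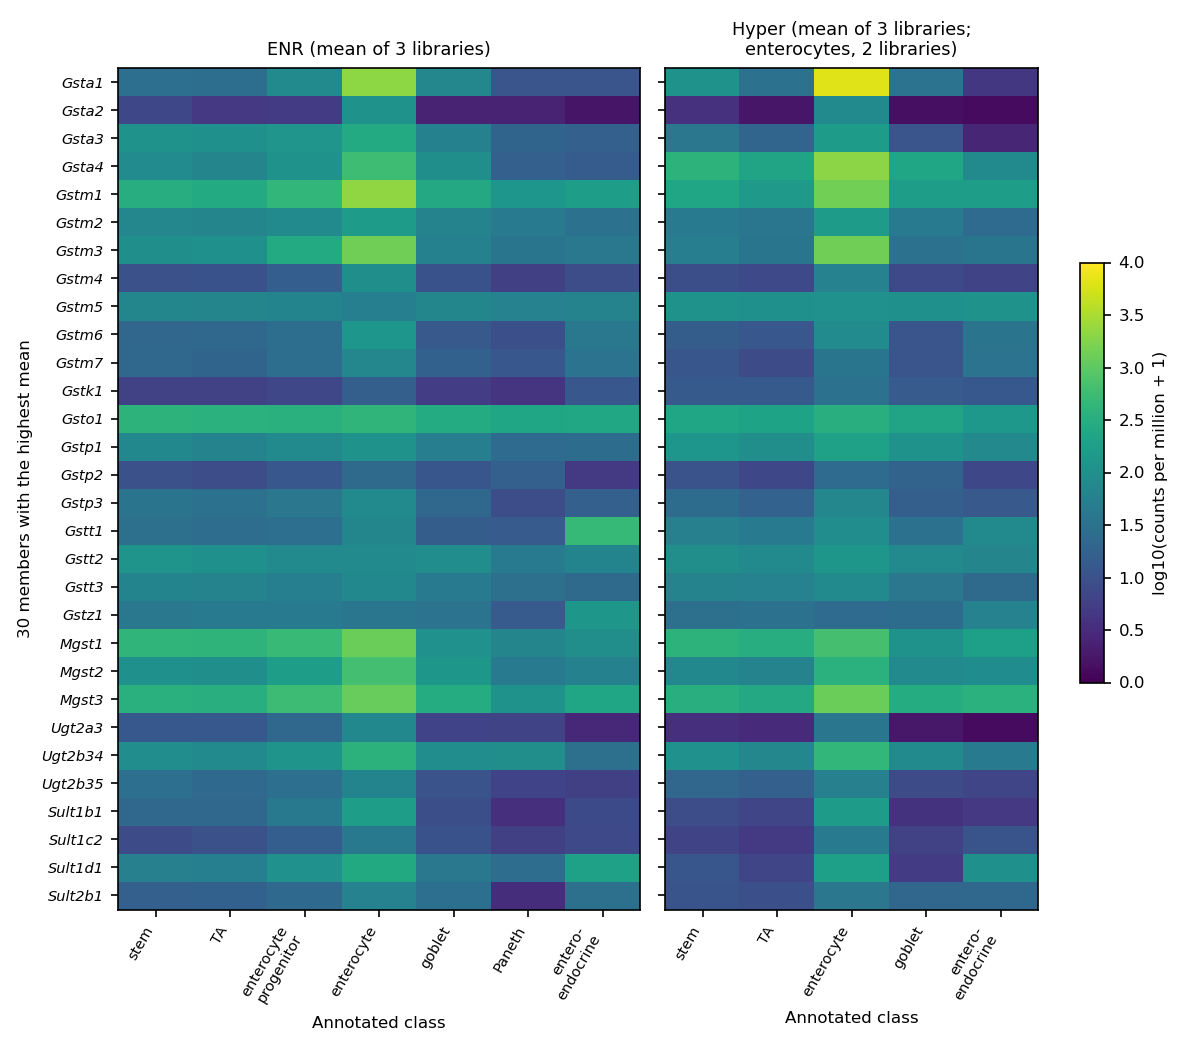
Mean level of the 30 members with the highest mean (rows) in each annotated class (columns), in ENR at left and Hyper at right, as log10 of CPM + 1, averaged over 3 libraries (2 for Hyper enterocytes). The enterocyte column is the brightest for most rows in both media, with Gsta1 at 2063 CPM in ENR and 6318 in Hyper, while Gstt1 and Gstz1 are brightest in ENR enteroendocrine cells.

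Enterocytes were 9.78 to 13.1% of kept cells in the ENR libraries, 5.68 to 6.23% in -VE and 0.249 to 1.65% in Hyper, and enterocyte progenitors 22.2 to 34.5%, 4.29 to 4.39% and 0.0852 to 0.107%. Within enterocytes the members took 1.14 to 1.30% of UMIs in ENR, 1.40 to 1.43% in -VE and 1.57 to 1.65% in the 2 Hyper libraries with at least 20 such cells. In those 2 libraries Gsta1 stood at 4871 and 7766 CPM, above its 1973 to 2138 in ENR enterocytes. Gsta4 there stood at 1727 and 2366, against 563 to 604 in ENR. Of the 37 members that averaged at least 1 CPM in enterocytes, 9 lay higher and 18 lower in both of these Hyper libraries than in every ENR library, where 28.3% and 24.1% of the 11147 genes at that level did. Among the lower ones, Mgst1 stood at 683 and 614 in Hyper and 1102 to 1346 in ENR, and Sult1d1 at 184 and 181 against 257 to 276.

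Hyper replicate 1 held 7 enterocytes and missed the minimum of 20, so a fit without it was added after seeing the data. Between Hyper and ENR enterocytes, 7 of 37 members were called, 3 higher and 4 lower, against 10.9% of all genes (7.78% higher, 3.08% lower). Gsta4 and Gsta1 were higher, by log2 fold changes of 1.77 (SE 0.200, adjusted p = 0.000349) and 1.57 (SE 0.181, adjusted p = 0.000375) (Hyper libraries above every ENR library for both). The third, Gsto2, passed the low-count filter only through the Hyper libraries and so had to differ, on 7 UMIs in ENR and 12 in Hyper, which leaves 6 calls. Ugt2b36, Sult6b2, Ugt2b5 and Ugt2a3 were lower, by -2.53, -1.89, -1.45 and -1.07. Between Hyper and -VE enterocytes 5 were called, against 6.87% (5.12% higher, 1.75% lower): Gsta1 (1.18) and Gstk1 (1.05) higher and Sult6b2 (-1.71), Gsta3 (-1.43) and Ugt2b36 (-1.13) lower. With the replicate block the last count was 3, since Gsta1 (0.94) and Ugt2b36 (-0.96) fell short of 2-fold, and Gstp1 was also called higher between Hyper and ENR (1.13, adjusted p = 0.0196). Markers moved within this class: in ENR and Hyper enterocytes, revival stem markers summed to 0.766 to 2.11 and 86.3 to 89.8 CPM, liver markers to 12.1 to 27.8 and 100.0 to 140, enterocyte progenitor markers to 1637 to 1993 and 1023 to 1398, TA markers to 248 to 326 and 170 to 193, colonocyte markers to 145 to 168 and 78.0 to 105 and Paneth markers to 46.2 to 62.5 and 6.15 to 8.22. Enterocyte markers overlapped (17753 to 19435 in ENR, 17213 to 29264 in Hyper) and were lower in -VE (10059 to 11222). Their part in the enterocyte results was not tested.

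With enterocytes and enterocyte progenitors left out of every library, an alternative added after seeing the data, 15 members were called between Hyper and ENR (4 higher, 11 lower), 9 between Hyper and -VE and 3 between -VE and ENR, and the median between Hyper and ENR was -0.62. Of all genes, 20.4%, 18.2% and 0.958% were called in that fit, beside 22.9%, 18.6% and 2.55% with all kept cells. Calls between Hyper and ENR were lost for Gstm1 (-0.80), Gstm2, Gstm4, Gstm6, Mgst2, Ugt1a6a, Sult1c2, Sult2b1 and Sult6b2 (-0.13). Calls were also gained, since 4 members were called higher in that fit and 2 with all kept cells.

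Within single classes the changes were uneven. In stem cells, which were 9.75 to 14.7% of ENR cells and 40.0 to 44.1% of Hyper cells, 16 of 39 members tested were called between Hyper and ENR (5 higher, 11 lower), against 18.0% of all genes (15.2% higher, 2.80% lower). In transit amplifying (TA) cells 18 of 42 were called (3 higher, 15 lower), against 20.9% (17.2% higher, 3.78% lower). In goblet cells 9 of 33 were called (5 higher, 4 lower), against 13.3% (10.7% higher, 2.64% lower), and in enteroendocrine cells 7 of 31 (4 higher, 3 lower), against 7.40% (5.96% higher, 1.44% lower). Of these calls, 3 in stem cells (Sult4a1, Ugt1a1 and Ugt1a5), 3 in TA cells (Sult4a1, Ugt1a5 and Ugt1a9), 2 in goblet cells (Sult4a1 and Ugt2a3) and 1 in enteroendocrine cells (Sult4a1) were of members that passed the low-count filter only through the group where they were high. Such members had to differ, and 13, 15, 7 and 6 calls remain without them.

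The authors assigned stem cells of ENR and of Hyper from different clusters, and markers moved within the classes. Among 13 marker lists, those whose ENR and Hyper libraries did not overlap in stem cells, in CPM, were stem (3157 to 4560 in ENR, 268 to 923 in Hyper), enterocyte progenitor (785 to 951, 318 to 491), Paneth (98.8 to 112, 9.52 to 32.7), colonocyte (16.8 to 18.5, 7.43 to 10.1), revival stem (1.14 to 1.57, 28.6 to 125) and stroma, which stayed under 1 CPM. Enterocyte markers in stem cells stood at 66.2 to 87.8 in ENR and 52.8 to 309 in Hyper. Of the stem markers Olfm4 stood at 2977 to 4336 in ENR and at or below 630 in Hyper, while Lgr5 stood at 88.3 to 111 and 122 to 163. In TA cells the stem (1784 to 2659, 283 to 952), enterocyte progenitor (1013 to 1158, 287 to 407), Paneth (84.1 to 91.9, at or below 32.1) and colonocyte lists (at or below 18.4, 4.72 to 5.55) were lower in Hyper and the revival stem list (0.679 to 3.53, 16.7 to 105) higher, as were leukocyte and stroma markers at 1.17 CPM or less. In goblet cells the goblet (23050 to 31450, 9658 to 19367), enterocyte (186 to 336, 22.5 to 45.6), enterocyte progenitor (462 to 571, 265 to 280.3) and colonocyte lists (3.79 to 6.25, 1.26 to 2.54) were lower and the enteroendocrine (24.1 to 32.4, 93.2 to 133) and revival stem lists (0.784 to 6.82, 9.67 to 84.5) higher, as was stroma at 1.26 CPM or less. Their part in the class results was not tested.

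With the replicate block 3 more members were called lower in TA cells, Gstm2 (-1.02), Gstm6 (-1.08) and Ugt1a6a (-1.02). In goblet cells Gsta1 (-1.60, adjusted p = 0.00466) and Sult1c2 (-1.01) were then called lower, and the call of Sult6b2 was lost. Counts in stem and enteroendocrine cells were unchanged.

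Gsta4 and Gsta3 were among the members called in all 4 classes, Gsta4 higher by log2 fold changes of 2.09, 1.64, 1.13 and 2.60 and Gsta3 lower by -1.66, -2.48, -2.54 and -3.08. The last of these, in enteroendocrine cells, rests on 61 ENR and 12 Hyper UMIs. Sult4a1 was above ENR in every Hyper library of each class, but passed the filter in each only through Hyper, so its levels are a description. On 3, 7, 1 and 18 ENR UMIs, its ratio of levels between Hyper and ENR was 47.7 (counting interval 16.2 to 232) in stem cells, 76.5 (37.0 to 191) in TA, 39.2 (6.76 to 1578) in goblet and 4.00 (2.43 to 6.96) in enteroendocrine cells. In stem cells Gsta4 stood at 95.7, 78.2 and 74.4 CPM in ENR, 225 and 325 in -VE and 237, 500 and 404 in Hyper, so ENR lay below both other groups. Sult1d1 in stem cells stood at 53.4, 59.1 and 49.2 in ENR, 16.9 and 9.91 in -VE and 7.09, 10.2 and 14.8 in Hyper, so that -VE and Hyper overlapped and ENR lay above both (Hyper against ENR -2.45, SE 0.269, adjusted p = 9.39e-05). Ugt2a3 in stem cells kept the order of the whole cultures, at 10.9 to 12.7, then 6.78 and 4.88, then 2.39 to 2.70 (Hyper against ENR -2.31, SE 0.160, adjusted p = 6.97e-06). Gstk1 was higher in Hyper than in ENR in stem, TA and goblet cells, by 1.21, 1.27 and 1.49.

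**Figure D3:**
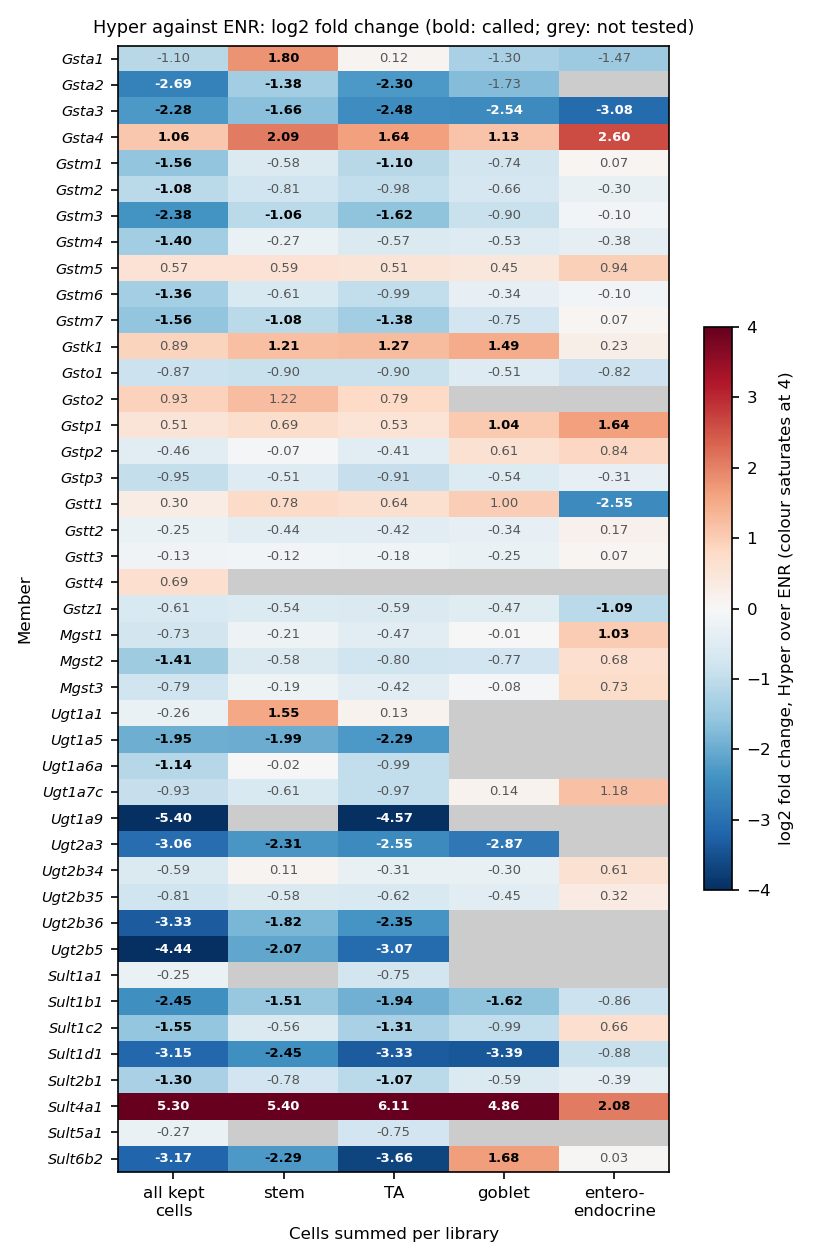
Log2 fold change of Hyper against ENR for the 43 tested members (rows) over all kept cells and within 4 annotated classes (columns), red for higher and blue for lower in Hyper, bold where called and grey where not tested. Gsta4 is red and Gsta3 blue in every column, while Gsta1 runs from 1.80 in stem cells to -1.47 in enteroendocrine cells, and the Sult4a1 values in stem and goblet cells rest on 3 and 1 ENR UMIs and the Ugt1a9 value over all cells on 2 Hyper UMIs.

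Between Hyper and -VE, 10 of 39 members were called in stem cells (3 higher, 7 lower), against 16.5% of all genes (14.7% higher, 1.76% lower). In TA cells 14 of 42 were called (2 higher, 12 lower), against 17.8% (15.5% higher, 2.32% lower), in goblet cells 8 of 33 (3 higher, 5 lower), against 9.87% (8.72% higher, 1.15% lower), and in enteroendocrine cells 4 of 31 (1 higher, 3 lower), against 4.01% (3.52% higher, 0.489% lower). Of these, Sult4a1 and Ugt1a1 in stem cells, Sult4a1 in TA and enteroendocrine cells and Sult4a1 and Gsta2 in goblet cells passed the filter only through the group where they were high, which leaves 8, 13, 6 and 3 calls. Gsta3 was called lower in each of the 4 classes, by log2 fold changes of -2.42, -3.21, -3.20 and -4.73 in the same order. Gstk1 was called higher in stem, TA and goblet cells, by 1.60, 1.43 and 1.53. Gsta1 was called lower in TA and goblet cells (-1.95 and -2.07), and Sult6b2 in stem, TA and enteroendocrine cells (-2.02, -3.24 and -2.03). The Sult6b2 values rest on 25, 96 and 211 UMIs in -VE and 13, 12 and 98 in Hyper. The enteroendocrine value of Gsta3 rests on 186 UMIs in -VE and 12 in Hyper. With the replicate block the stem calls of Gstm1 (-0.92) and Sult6b2 (-1.66, adjusted p = 0.06) and the goblet call of Gsta2 (-1.96, adjusted p = 0.0671) were lost, and over all cells Ugt1a5 was also called lower (-1.48, adjusted p = 0.0221).

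For several members the log2 fold changes in stem cells and in another class had opposite signs and differed from each other by a test of the difference. Gsta1, Sult6b2 and Gstt1 differed most among these. The opposite signs themselves were not tested, and some of these fold changes lay near 0. In stem cells Gsta1 was called higher, from 34.6, 29.1 and 21.2 CPM in ENR to 28.1, 106 and 187 in Hyper (log2 fold change 1.80, SE 0.558, adjusted p = 0.0231), although Hyper replicate 1 overlapped the ENR libraries and enterocyte markers in this class also ranged widely in Hyper, whose part was not tested. That call was lost without any 1 ENR library and without Hyper replicate 3 (1.11). In goblet cells Gsta1 stood at 50.5 to 110 in ENR and 5.57, 15.7 and 74.4 in Hyper (-1.30, not called, and -1.60, called, with the replicate block), and the difference between the goblet and stem effects was -3.20 (SE 0.399, adjusted p = 6.81e-05, edgeR fit of class by medium with the library as block). Sult6b2 in goblet cells stood at 3.98, 5.49 and 5.83 in ENR, 6.61 and 20.8 in -VE and 29.2, 6.13 and 18.0 in Hyper, with no overlap between ENR and Hyper and a called rise of 1.68 (SE 0.578, adjusted p = 0.0441) that was lost with the replicate block (1.65, adjusted p = 0.073). In stem cells Sult6b2 averaged 0.399 CPM in ENR and 0.0909 in Hyper, from 15 and 13 UMIs, and the difference of effects was 3.93 (SE 0.805, adjusted p = 0.00372). Gstt1 in enteroendocrine cells stood at 589, 289 and 553 in ENR, 66.1 and 99.0 in -VE and 69.3, 87.2 and 77.1 in Hyper. Every ENR library lay above all others, with log2 fold changes of -2.55 for Hyper (SE 0.256, adjusted p = 0.000136) and -2.43 for -VE (SE 0.299, adjusted p = 0.00998) against ENR. In stem cells Gstt1 was higher in Hyper by 0.78 and not called, and the difference of effects was -3.31 (SE 0.246, adjusted p = 3.71e-07). Opposite signs with smaller differences were found in enteroendocrine cells for Mgst1, Mgst2, Mgst3, Ugt1a7c, Gstm7 and Gstt2, with log2 fold changes of 1.03, 0.68, 0.73, 1.18, 0.07 and 0.17 there and -0.21, -0.58, -0.19, -0.61, -1.08 and -0.44 in stem cells. They were also found in goblet cells for Gstp2 (0.61 and -0.07 in stem cells) and in goblet and TA cells for Ugt2b34 (-0.30 and -0.31, and 0.11 in stem cells).

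Adjusted p under 0.05 for a difference from the stem effect was reached by 20 of 41 members in TA cells, all lower, by 8 of 36 in goblet cells (3 higher, 5 lower) and by 13 of 35 in enteroendocrine cells (9 higher, 4 lower), against 15.1%, 14.1% and 10.9% of all genes. Those shares of all genes hold both directions together, and their split by direction was not computed, so the directions of the members have no background. The 4 lower in enteroendocrine cells include Sult4a1, which passed the low-count filter in both classes only through Hyper and had 3 ENR UMIs in stem cells. Enteroendocrine cells also differed for Sult1d1, which stood there at 234, 183 and 167 CPM in ENR and 62.1, 128 and 114 in Hyper (log2 fold change -0.88, not called), and the difference from its stem effect was 1.54 (SE 0.184, adjusted p = 4.45e-05). Mgst1 was called higher there (57.5, 126 and 99.6 in ENR, 248, 149 and 150 in Hyper, 1.03) and Gstz1 lower (114 to 151 in ENR, 49.3 to 64.5 in Hyper, -1.09). Gstp1 was called higher in goblet and enteroendocrine cells, by 1.04 and 1.64. Markers also moved within the enteroendocrine class: its own markers summed to 24189 to 38042 CPM in ENR, 17613 to 22284 in -VE and 7665 to 21723 in Hyper, and Paneth markers to 335 to 627, 2988 to 4228 and 841 to 5111. Liver markers stood there at 236 to 439 in ENR and 578 to 682 in Hyper and leukocyte markers at or below 4.66 and 11.1 to 12.2. Their part in the results for Gstt1, Mgst1, Gstz1 and Gstp1 was not tested.

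In the -VE against ENR comparison, 4 of 37 members tested in enterocytes were called, against 3.34% of all genes (1.44% higher, 1.90% lower): Gsta4 higher by 1.08 (SE 0.198, adjusted p = 0.0106) and Sult2b1, Ugt2b36 and Ugt2b5 lower by -1.25, -1.40 and -1.59. In stem cells 4 of 39 were called (1 higher, 3 lower), against 0.503% (0.230% higher, 0.273% lower), and in TA cells 5 of 42 (1 higher, 4 lower), against 1.03% (0.694% higher, 0.337% lower). In goblet cells 2 of 33 were called, both lower, against 1.14% (0.529% higher, 0.606% lower), and in enteroendocrine cells 1 of 31, Gstt1, against 0.190% (0.118% higher, 0.0724% lower). Gsta4 was also called higher in stem (1.73) and TA cells (1.78), while over all cells its 1.15 (SE 0.295) had an adjusted p of 0.0526, and 0.018 with the replicate block. Sult1d1 was called lower in stem, TA and goblet cells, by -2.02, -1.93 and -2.07. With the replicate block Gsta1 (1.54, adjusted p = 0.035) and Gsta4 (1.19, adjusted p = 0.0149) were also called higher in goblet cells and Sult6b2 higher in enteroendocrine cells (1.98, adjusted p = 0.0163). Ugt1a9, at few UMIs, was then called lower in TA cells (-3.67), but it passed the low-count filter there only through the ENR libraries and so had to differ. Over all cells the -VE calls were the least stable: those of Sult1b1 and Ugt2b5 were lost without any 1 of the 5 ENR and -VE libraries, and without -VE replicate 2 only 1 member was called, while the share of all genes called went from 2.55% to 0.579%. In stem cells none was called without that library or without any 1 ENR library, while the share of all genes called there went from 0.503% to 0.119% without -VE replicate 2 and to 0.0574, 0.186 and 0.272% without ENR replicate 1, 2 and 3.

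The supply, export and regulation of conjugation were followed in 62 further genes, of which 59 were tested and 4 were called higher and 9 lower between Hyper and ENR, 1 and 7 between Hyper and -VE, and 2 and 6 between -VE and ENR. These are 13, 8 and 8 of the 59, beside 22.9%, 18.6% and 2.55% of all genes. With both directions together the first count is near the background, the second, at 13.6%, is below it and the third, also at 13.6%, is above it. By direction, 6.78% were higher and 15.3% lower between Hyper and ENR, beside 18.2% and 4.75% of all genes. Between Hyper and -VE, 1.69% were higher and 11.9% lower, beside 16.1% and 2.51%. Between -VE and ENR, 3.39% were higher and 10.2% lower, beside 1.35% and 1.20%. Their median between Hyper and ENR was -0.22. Gclc, the catalytic subunit of the rate-limiting ligase, averaged 53.7 CPM in ENR, 55.1 in -VE and 42.6 in Hyper and was not called. Between Hyper and ENR the one call among the 13 genes of glutathione supply was Ggt1, which breaks down glutathione outside the cell (10.8, 1.98 and 0.420, log2 fold change -4.62, SE 0.482, adjusted p = 0.000102), and between Hyper and -VE the cystine carrier Slc7a11 was also called, lower by -1.31 (adjusted p = 0.0229). None of 4 genes of UDP-glucuronate supply was called, with Ugdh, the enzyme that makes UDP-glucuronate, at 154 CPM in ENR and 85.3 in Hyper (-0.85). Of 8 genes of PAPS supply, Papss2, a PAPS synthase, and Bpnt1, which removes the spent cofactor, were lower by -1.43 and -1.32 and the sulfate carrier Slc26a1 was higher by 1.34. Whether any of these further genes passed the low-count filter only through the group where it was high was not checked, as it was for members. Among 8 exporters Abcc2, Slc51a and Slc51b were lower (-1.86, -3.97 and -2.84) and Abcc4 higher (1.70). Among 13 regulators Nr1i3, the xenobiotic receptor CAR, averaged 18.5 CPM in ENR, 6.28 in -VE and 1.88 in Hyper (-3.30, SE 0.243, adjusted p = 1.81e-05) and Ahrr was higher (2.69), and Nfe2l2, which encodes NRF2, had an uncalled log2 fold change of -0.74. Among 8 other NRF2 targets Nqo1 was lower (-1.36) and Hmox1 higher (1.22). Of 5 other conjugating enzymes tested, Nat8, which acetylates cysteine conjugates, was lower (-5.16).

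In colonic crypts there was 1 library per condition, so no test was made, and levels are plain CPM with exact 95% Poisson intervals that cover counting error only. Members took 0.471% of UMIs in the normal and 0.458% in the DSS library, and 35 of 48 reached 1 CPM in either. On log2 of CPM + 1, 2 of these were past 2-fold higher in DSS and 1 lower, where 3.55% of 12440 genes were past it higher and 1.53% lower, and the median difference was 0.13 against 0.03 over all genes. Gsta3 stood at 7.59 CPM in normal crypts (6.42 to 8.90) and 44.8 in DSS (42.6 to 47.2), a log2 difference of 2.42. Gstp3 stood at 8.69 (7.44 to 10.1) and 36.1 (34.1 to 38.2), a log2 difference of 1.94. Sult1a1, a phenol sulfotransferase, stood at 299 (292 to 307) and 141 (137 to 145), a log2 difference of -1.08. None of these 3 intervals overlapped between the libraries, but at such counts they also part for small differences, as for Gsto1 (491 to 511 in normal crypts and 457 to 472 in DSS). In the organoids Sult1a1 was at or below 0.248 CPM in all 8 libraries.

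The other colonic members of at least 50 CPM moved by less than 2-fold. Mgst3 was the highest, at 1579 CPM in normal crypts and 1374 in DSS, followed by Gsto1 at 501 and 465. Sult1d1 stood at 304 and 221, Ugt2b34 at 219 and 189, Sult1b1 at 209 and 187 and Sult2b1 at 77.6 and 39.4, the last with a log2 difference of -0.96. Mgst1 (272 and 393), Mgst2 (171 and 252), Gstp1 (176 and 232), Gstm1 (216 and 242) and Gsta1 (60.9 and 97.5) were higher in DSS. Gsta4 stood at 81.0 and 98.0, Gstm5 at 51.3 and 68.2, Gstt2 at 49.2 and 58.0 and Gstp2 at 40.6 and 53.5, while Gstm2 (77.7 and 72.6) and Gstk1 (70.4 and 64.0) stood slightly lower in DSS. Ugt2a3, Ugt1a9 and Sult6b1 had 0 UMIs in both libraries.

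Leukocyte markers summed to 194 CPM in the normal and 1112 in the DSS library and stromal markers to 22.2 and 57.0. Paneth markers summed to 815 and 5.53, liver markers to 8.94 and 72.5, tuft markers to 6.28 and 3.09, enterocyte markers to 27.6 and 53.7, enterocyte progenitor markers to 1831 and 2982, revival stem markers to 1414 and 916, goblet markers to 4273 and 3163 and colonocyte markers to 6773 and 5294. The remaining 3 of the 13 lists, stem, TA and enteroendocrine, moved less, and the lists' part in the 3 differences was not tested. Without the clusters in which over 50% of cells had a Ptprc UMI (a leukocyte gene), Gsta3 (2.45) and Gstp3 (2.00) were past 2-fold higher and Sult1a1 (-1.06) lower, against 2.42% of genes higher and 1.73% lower. The authors' cell clusters also differed between the libraries, and of 7 clusters with at least 20 cells in both, 5 were not rich in Ptprc. In clusters 1, 2, 5, 6 and 13, Gsta3 stood at 8.24, 21.1, 2.95, 3.37 and 20.6 CPM in normal crypts and at 28.3, 49.9, 34.8, 1.78 and 133 in DSS, so it was higher in DSS in every cluster but cluster 6, the highest of the 5 in colonocyte markers. Gstp3 was higher in DSS in all 5, at 4.71 to 14.0 in normal crypts and 17.5 to 49.6 in DSS. Sult1a1 was lower in DSS in all 5, from 599, 610, 43.7, 201 and 410 to 346, 393, 32.4, 44.6 and 111.

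**Figure D4:**
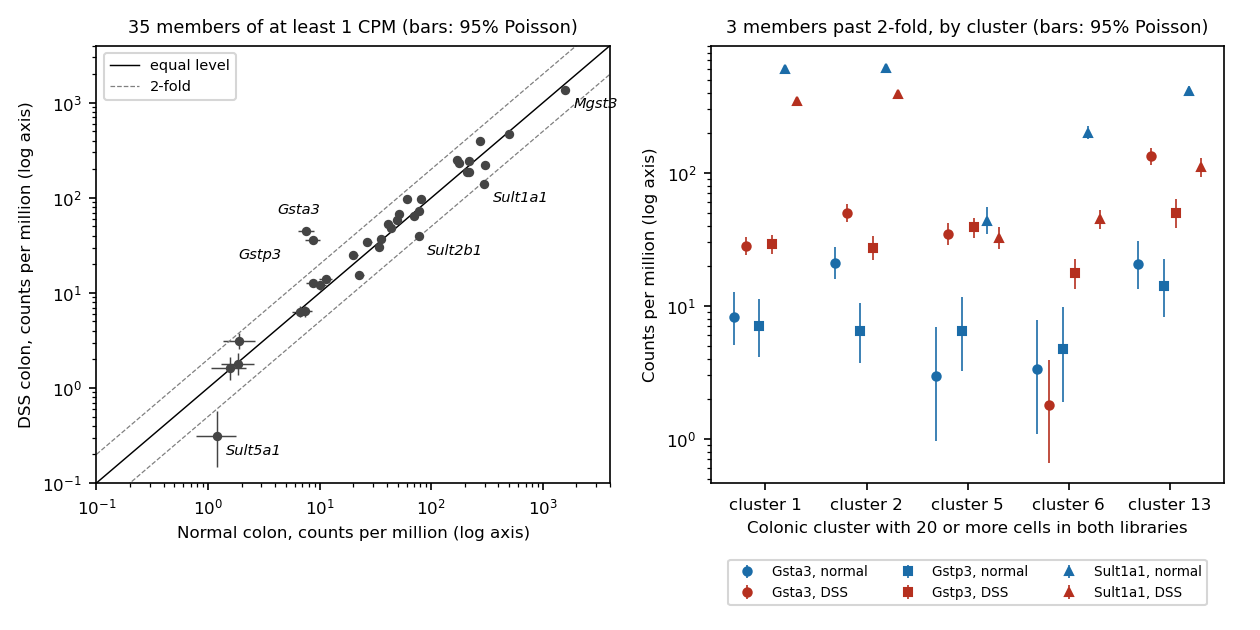
Left, level in DSS against normal colonic crypts for the 35 members of at least 1 CPM (points, both axes in CPM on log scales, bars 95% Poisson intervals), with lines for equal level and for 2-fold. Right, Gsta3, Gstp3 and Sult1a1 by library in the 5 clusters that were not rich in Ptprc and had at least 20 cells in both; Gsta3 and Gstp3 lie above the 2-fold line and Sult1a1 below it, and Sult5a1 (1.21 and 0.309) lies below it in CPM but not once 1 CPM is added to both values.

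Sult1e1, the estrogen sulfotransferase, had no UMI in the organoids or in the normal colonic library, where a count of 0 allows up to 3 UMIs. In DSS it had 25 UMIs, all in cluster 18, whose 33 DSS cells held it at 145 CPM (93.9 to 214). That cluster stood at 10029 CPM of stromal markers, and 63.6% of its cells had a Ptprc UMI.

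The members not yet described were low or changed little in the organoids. Gsto2 was at 0.292 to 0.406 CPM in ENR and 0.617 to 0.759 in Hyper (log2 fold change 0.93, not called). Gstp2, Sult5a1 and Gstt4 had overlapping ENR and Hyper libraries, with fold changes of -0.46, -0.27 and 0.69. Ugt1a2, Ugt2b1, Ugt1a6b and Sult6b1 were not tested and had 52, 51, 41 and 35 UMIs over the 8 libraries. The 19 tested members called in none of the 3 comparisons had log2 fold changes between -1.10 and 0.93 for Hyper against ENR.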

How the data were processed

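Single-cell 3′ RNA libraries of 8 organoid cultures and 2 colonic crypt preparations were used. The authors deposited UMI counts per gene and cell, aligned to mm10 with Cell Ranger (3.0.0 per their processing notes, 3.1.0 in the matrix headers) and analysed with Seurat 3.1.4, and a table of kept cells with their class or cluster, which was used as deposited; doublets were not called again. The methods name a filter of at least 1500 genes per cell, whereas kept cells held as few as 501.

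Counts were summed per library over kept cells, or over the cells of 1 class where every library had at least 20. Media were compared over the 8 organoid libraries (7 for enterocytes, without Hyper replicate 1) with the edgeR 4.0.16 quasi-likelihood test (R 4.3.3; filterByExpr, TMM, no block), and p-values were adjusted by Benjamini-Hochberg over the genes each fit tested (16037 over all cells, 11050 to 14553 within classes). Differences between class effects came from a class by medium fit with the library as block. On simulated counts, with 200 of 15705 genes changed, equally up and down, and no pairing of libraries, 95.9% of genes changed by log2 3 and 80.6% of those changed by 1.5 were recovered, with 6 false calls. In the data far more genes were called between Hyper and ENR, mostly higher, so the simulation does not cover that setting. ENR and Hyper libraries of the same replicate number, set by the first part of their library codes, deviated together over genes (correlations 0.192, 0.170 and 0.436). Blocked values are therefore given where they change a call. Colonic libraries had 1 sample per condition and no test. Positions were from GENCODE M21 and promoters from RefSeq.

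Members were described singly when called in any comparison over all kept cells, among the 10 highest by mean CPM, at or above 50 CPM in a colonic library, or different between classes. Members, pathway lists and cell type markers were chosen with earlier results of these data known. Alternatives were DESeq2 1.42.0, other filters and scaling, the replicate block, leaving out each library, and leaving out enterocytes.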

Additional observations from a re-analysis of the deposited data

Results flagged for a closer look

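In all, 11 member and class pairs had a Hyper against ENR effect that differed from the effect in stem cells by more than 2-fold with an adjusted p under 0.05 in the edgeR fit of class by medium. In goblet cells these were Sult6b2 (difference in log2 fold change 3.93, SE 0.805, adjusted p = 0.00372) and Gsta1 (-3.20, SE 0.399, adjusted p = 6.81e-05). Gsta1 also differed in TA cells (-1.68, adjusted p = 2.89e-07) and in enteroendocrine cells (-3.12, SE 0.862, adjusted p = 0.0288). In enteroendocrine cells the effects of Ugt1a7c (1.75), Sult1d1 (1.54), Mgst2 (1.23), Mgst1 (1.19) and Gstm7 (1.09) were higher than in stem cells, and those of Gstt1 (-3.31, SE 0.246) and Sult4a1 (-3.34, SE 0.856, adjusted p = 0.0189) were lower. The stem values of Sult6b2 rest on 15 ENR and 13 Hyper UMIs and that of Sult4a1 on 3 ENR UMIs, and Sult4a1 passed the filter within each of these classes only through Hyper.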

How the results depend on the processing

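Between -VE and ENR, 7 members were called over all cells, against 3 without enterocytes and their progenitors and 4 within stem cells. Of all genes, 2.55%, 0.958% and 0.503% were called in these fits. Leaving out 1 library at a time gave 20 to 24 members called between Hyper and ENR, 11 to 16 between Hyper and -VE and 1 to 8 between -VE and ENR (4 without ENR replicate 1 or 2, 1 without -VE replicate 2), and within stem cells 11 to 15, 7 to 11 and 0 to 5. The share of all genes called moved as well, to 1.58% and 0.944% between -VE and ENR without ENR replicate 1 and 2. With the replicate block, 21, 14 and 8 members were called over all cells, 4 in goblet cells and 2 in enteroendocrine cells between -VE and ENR (2 and 1 without it), and 3 in enterocytes between Hyper and -VE (5 without it). Of all genes, 3780, 3063 and 439 were called with the block over all cells, beside 3675, 2985 and 409 without it. Between -VE and ENR, 181 genes in goblet and 30 in enteroendocrine cells were called with it, beside 133 and 21. -VE shares only 2 numbers with the other media (correlations 0.161 and 0.0617 with ENR, 0.139 and 0.115 with Hyper). The log2 fold change of Gsta1 between Hyper and ENR was -1.10 over all cells and 1.80 within stem cells. DESeq2 called 22, 13 and 8 members, beside 3523, 2845 and 556 of all 16037 genes. Scaling by library size alone moved the median of all genes by 0.13 (Hyper against ENR) and 0.14 (Hyper against -VE), with 23 and 11 members called, beside 23.9% and 19.6% of all genes. Of the other counts, 97 stayed within 1.5 times their value. Of the values for single members that were compared, 1906 kept direction and call, 125 lost and 21 gained a call and 1, Gsta1 above, was marked as reversed. Within classes only members called there were compared, so calls gained there are not among these. Ugt1a1 and Ugt2b34, not called over all cells, also had opposite signs over all cells and within stem cells, though not marked. Classes with few cells and members under 1 CPM limit what could be tested, and colonic differences have no replicate.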
